A study of Mus musculus with 135 samples.

Results

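The cells described here are single haematopoietic stem cells (HSCs) from 1 young mouse, split into those that expressed a set of cell division genes, termed cycling, and those that did not, termed non-cycling. HSCs were sorted from bone marrow as live cells with Sca-1, c-Kit and CD150 on the surface and without CD48 or lineage markers, and RNA was sequenced separately from each cell. A cell was taken as cycling when at least 1 of 4 genes, Ccna2, Ccnb1, Cdk1 and Cdc25c, had a level above 2, where a level is log2(CPM + 1) and CPM is the gene's share of the counted reads of that cell, scaled to 1000000. The members were thus chosen by the measured levels of these 4 genes. Of the 135 cells in the series, 61 came from the young mouse (2 to 3 months) and 74 from the old mouse (20 to 25 months). Both mice were C57BL/6 animals that carried a Vwf-eGFP reporter, an eGFP gene placed under Vwf control on a bacterial artificial chromosome, and no treatment is given for either. After 9 young cells were left out, as listed for the study, 52 young cells remained, of which 27 were cycling and 25 were non-cycling. The cycling share was 51.9% (95% exact binomial interval 37.6 to 65.99%, counting error only). All 52 cells came from 1 mouse, so cells are not replicates, no test was made, and the SD given with each mean is the spread between cells.

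The 4 rule genes encode parts of the switch that takes a cell from DNA synthesis into mitosis. Cyclin A2 (Ccna2) acts with CDK partners in S and G2 phase, cyclin B1 (Ccnb1) with Cdk1 drives entry into mitosis, and Cdc25c is a phosphatase that removes inhibitory phosphates from Cdk1. Most HSCs of an adult mouse rest outside the cell cycle and enter it rarely. In a dividing cell, E2F factors switch on genes for DNA replication as S phase begins, and the MuvB complex with B-Myb and FoxM1 switches on genes for mitosis later, in G2. The comparison asks which other transcripts differed between cells with and without the 4 rule transcripts.

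Promoters of genes from both waves are shown because the genes with the largest differences below belonged to both. The sequences are the 200 bases upstream of the annotated start, from RefSeq on GRCm38.p6, printed 5' to 3' on the strand of the gene. They cover chr10:69352913-69353112 on the minus strand for Cdk1, chr13:100786487-100786686 on the minus strand for Ccnb1, chr11:99024190-99024389 on the minus strand for Top2a, chr8:83955494-83955693 on the plus strand for Asf1b and chr2:118598011-118598210 on the plus strand for Bub1b. Capitals mark CCAAT, the box bound by NF-Y, TTTGAA or TTCGAA, core letters of the element bound by MuvB, and TTGGCGC or TTCGCGC, core letters of E2F sites, each on either strand.
Cdk1: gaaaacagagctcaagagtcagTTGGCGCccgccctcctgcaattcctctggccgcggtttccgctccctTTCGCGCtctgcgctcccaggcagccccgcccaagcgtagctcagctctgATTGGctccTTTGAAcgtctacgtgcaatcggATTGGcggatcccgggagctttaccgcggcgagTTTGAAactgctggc
Ccnb1: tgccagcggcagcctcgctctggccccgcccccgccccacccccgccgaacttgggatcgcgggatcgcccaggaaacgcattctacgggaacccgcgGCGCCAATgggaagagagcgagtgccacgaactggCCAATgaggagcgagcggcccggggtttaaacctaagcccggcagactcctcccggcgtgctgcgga
Top2a: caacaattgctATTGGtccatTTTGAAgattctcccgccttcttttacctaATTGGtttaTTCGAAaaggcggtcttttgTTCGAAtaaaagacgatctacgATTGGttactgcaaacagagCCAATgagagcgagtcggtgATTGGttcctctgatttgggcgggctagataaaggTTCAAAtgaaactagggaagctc
Asf1b: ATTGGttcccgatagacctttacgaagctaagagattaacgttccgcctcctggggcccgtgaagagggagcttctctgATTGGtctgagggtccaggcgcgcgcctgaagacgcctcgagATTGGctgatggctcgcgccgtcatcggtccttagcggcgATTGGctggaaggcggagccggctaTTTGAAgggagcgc
Bub1b: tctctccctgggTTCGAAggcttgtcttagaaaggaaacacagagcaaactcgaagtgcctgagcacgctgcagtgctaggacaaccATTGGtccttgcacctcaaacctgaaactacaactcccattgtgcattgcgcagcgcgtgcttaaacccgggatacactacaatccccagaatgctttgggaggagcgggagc
The Top2a sequence held 5 CCAAT boxes, 2 TTTGAA and 2 TTCGAA matches. The Cdk1 sequence held 2 CCAAT boxes, 2 TTTGAA matches and 1 match to each E2F form. In Ccnb1, the TTGGCGC match on the reverse strand shares bases with a CCAAT box. Ccna2, Cdc25c, Aurkb and Mcm4 had no entry under these symbols.

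Motifs were then counted in all 32851 RefSeq windows, which run from 250 bases before to 50 bases after a start. At least 2 CCAAT boxes were present in 11.7% of all windows and in 14.4% of the 8887 windows of genes compared below. The share was 24.9% of the 334 windows of genes higher in cycling cells by at least 2, and 4.76% of the 21 windows of genes lower by at least 2. TTTGAA or TTCGAA was present in 14.5% of windows of compared genes, in 22.5% of windows of higher genes and in 67.1% of the 85 windows of genes in the 4 mitosis lists. TTGGCGC or TTCGCGC was present in 7.38% of windows of compared genes, in 14.1% of windows of higher genes, in 11.8% of the mitosis windows and in 30.5% of the 59 windows of genes in the 2 replication lists. The MuvB letters were present in 22% of the replication windows. Windows were present for 7003 of the 9227 compared genes and for 274 of the 349 higher genes, so the shares leave out the rest. All these values are counts of letters, not of bound sites.

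The rule genes chose the cells, so their values are a description only. Cdk1 had a level above 2 in 21 of the 27 cycling cells, Cdc25c in 12, Ccna2 in 11 and Ccnb1 in 11. Cdk1 ranged from 0 to 10.23 in cycling cells with a median of 3.34, and reached at most 1.37 in non-cycling cells. Exactly 1 rule gene was expressed in 12 cells, 2 in 7 cells, 3 in 3 cells and all 4 in 5 cells. Of the 12 cells with exactly 1 gene, 8 expressed Cdk1 and 4 expressed Ccnb1. Ccna2 and Cdc25c were never the only rule gene of a cell, so the rule without either gene gave the same 27 cells. Cell F9 met the rule through Ccna2 (5.11) and Cdc25c (5.58) together, with Ccnb1 at 0 and Cdk1 at 0.33.

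**Figure D1:**
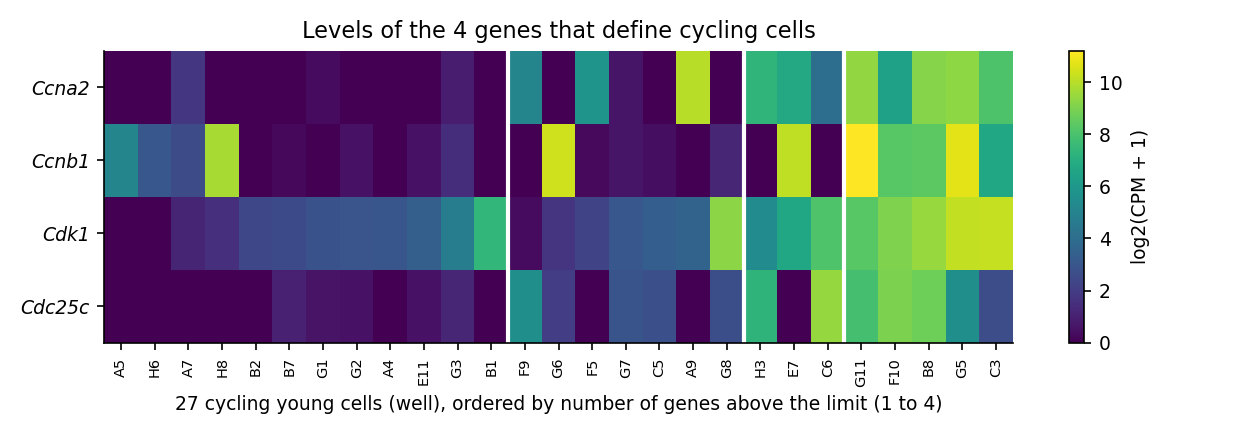
Level, as log2(CPM + 1), of each of the 4 rule genes (rows) in each of the 27 cycling young cells (columns, named by well), with white lines between cells that expressed 1, 2, 3 and 4 of the genes. The 12 cells on the left express exactly 1 gene, mostly Cdk1 at a low level, and the 5 cells on the right express all 4.

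Membership was close to the limit for some cells. The 5 cycling cells nearest to it had a highest rule gene level of 2.45 (cell B2, Cdk1), 2.52 (B7, Cdk1), 2.56 (A7, Ccnb1), 2.82 (G1, Cdk1) and 2.96 (G2, Cdk1). The 5 non-cycling cells nearest to it had 1.37 (E6, Cdk1), 1.24 (F8, Cdk1), 1.22 (D8, Cdk1), 1.03 (B3, Cdk1) and 0.96 (C12, Cdc25c). The highest rule gene level lay between 2 and 4 in 10 cycling cells and above 6 in 13. At least 1 read of a rule gene was present in 15 of the 25 non-cycling cells. Of the 27 cycling cells, 2 were called on 2 reads each, cell A4 from 281907 counted reads (Cdk1) and cell H6 from 273236 (Ccnb1), because at such depth 2 reads pass the limit.

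Depth was similar in both groups, but cycling cells expressed more genes. Counted reads per cell had a median of 2686914 in cycling cells (273236 to 5688706) and 2941748 in non-cycling cells (981155 to 5018332). The number of genes with a level above 2 had a median of 4614 in cycling cells (2973 to 5600) and 3862 in non-cycling cells (3007 to 5130). With every cell thinned to 250000 reads, the medians were 4883 and 4081. The ranges overlapped, and 5 of 27 cycling cells lay above the highest non-cycling cell. Among these 5 were A4 (5169 genes) and H6 (5336 genes), with only 281907 and 273236 counted reads. At such depth a single read passes the limit, and no non-cycling cell was as shallow. The part that this difference has in the gene differences below was not tested. Among cells with 3500 to 5000 genes expressed, an alternative added after seeing the data, 387 genes were higher and 96 were lower by the measure given next.

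Each gene was compared by the difference between its mean level in the 27 cycling and in the 25 non-cycling cells, for the 9227 genes with a level above 2 in at least 10% of the 52 cells, the rule genes excluded. A gene that passes this filter only through the group in which it is high had to differ, so a count over such genes supports nothing by itself. In cycling cells 349 genes were higher by at least 2 on the log2 scale, 3.78% of those compared, and 25 were lower by at least 2, 0.271%. The median difference over all 9227 genes was 0.26, and 63.6% of them had a difference above 0. Leaving out any single cell gave 324 to 408 higher and 23 to 32 lower genes, and 226 of the 349 and 13 of the 25 stayed past 2 whichever cell was left out. The balance of directions differed between scalings. With TMMwsp factors, under which the rule was applied again and gave 25 cycling cells and 9119 compared genes, 154 genes were higher and 61 lower, so that 71.6% of these were higher against 93.3% in the comparison above, and the median over all genes moved to -0.04. With poscounts size factors 233 were higher and 46 lower, and the median was 0.10. From ratios of summed counts 1140 were higher and 891 lower, of which 56.1% were higher.

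Genes of cell division stood out among the higher genes. Of 235 compared genes in the 12 cell cycle lists, 75 were higher by at least 2 (31.9%) and 0 were lower, with a median difference of 1.53. Only 0.271% of all genes compared were lower, so 0 lower genes, here and in each list below, was near the background. The other 8992 genes held 274 higher genes (3.05%), with a median difference of 0.24. Of the 349 higher genes, 21 had no non-cycling cell above the limit, and 16 of these were in the cell cycle lists. These 21 passed the filter through cycling cells only, so they had to differ. The number of such genes among all 9227 compared is not given here, so no share stands beside this count. These lists and the rule genes describe the same process, so the counts state what the groups were and are no independent evidence of it.

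Replication licensing genes load the MCM helicase onto origins. Of 26 such genes, 22 were compared and 4 were higher by at least 2 (Mcm4, Mcm7, Orc6 and Dbf4), with 0 lower and a median difference of 1.42. Mcm4, a subunit of the helicase, ranged from 0 to 11.01 in cycling cells with a median of 6.99, and from 0 to 9.75 in non-cycling cells with a median of 0.54. It was expressed in 21 of 27 cycling cells (77.8%, 57.7 to 91.4%) and in 7 of 25 non-cycling cells (28%, 12.1 to 49.4%), with means of 6.23 ± 3.93 (SD) and 2.20 ± 3.28. The ranges overlapped, and the difference in means of 4.03 stayed between 3.84 and 4.34 without any single cell. Mcm7, of the same helicase, had a difference of 2.35, Orc6, of the origin recognition complex, 2.24, and Dbf4, which activates the Cdc7 kinase at origins, 2.34. Gmnn, the licensing inhibitor geminin, had a difference of 1.97.

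Replication fork genes copy the DNA and package the copies. All 31 were compared, 11 were higher by at least 2 and 0 lower, with a median difference of 1.73. Lig1, the ligase that joins Okazaki fragments, had levels from 0 to 10.26 with a median of 6.57 in cycling cells, and from 0 to 7.74 with a median of 0 in non-cycling cells. Its mean was 5.08 ± 3.60 against 1.48 ± 2.65, a difference of 3.60. Asf1b, a histone chaperone at the fork, separated the groups in another way. No non-cycling cell passed 1.603, so it was expressed in 0 of 25 (upper limit 13.7%), while 12 of 27 cycling cells expressed it (44.4%, 25.5 to 64.7%) at up to 10.25. Its reads summed to 18133 over cycling and 16 over non-cycling cells (95% Poisson intervals 17870 to 18399 and 9.15 to 25.98, counting error only). Slbp, which binds the stem-loop of histone mRNAs, had a difference of 3.07, Uhrf1, which helps to copy DNA methylation, 3.02, and Fen1, a flap nuclease, 2.78.

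Nucleotide synthesis genes supply the building blocks of DNA. Of 24 compared, 5 were higher by at least 2 and 0 lower, with a median difference of 1.08. Both subunits of ribonucleotide reductase were among them. Rrm1, its large subunit, had a mean of 5.70 ± 4.10 in cycling and 2.10 ± 3.13 in non-cycling cells, and was expressed in 19 of 27 and 7 of 25 cells. Rrm2, its small subunit, was expressed in 12 of 27 cycling cells at up to 10.41 and in 0 of 25 non-cycling cells, where it reached 0.87. The remaining members past 2 were Dck (2.70), Dut (2.48) and Tk1 (2.34), which encode deoxycytidine kinase, dUTPase and thymidine kinase.

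The 4 mitosis lists had medians between 1.67 and 2.25. The list of mitotic kinases, checkpoint and APC/C genes had 15 of 27 compared genes higher by at least 2, 0 lower, and a median of 2.25, and over all its 31 genes, compared or not, the median was 1.83. Bub1b, a spindle checkpoint kinase-like protein, ranged from 0 to 11.08 with a median of 1.31 in cycling cells and did not pass 0.87 in non-cycling cells. It was expressed in 12 of 27 against 0 of 25 cells, and its reads summed to 17710 and 7. Aurkb, the kinase of the chromosomal passenger complex, was also expressed in 12 of 27 and 0 of 25 cells, with a highest level of 9.94 against 0.79. Pbk, a mitotic kinase, had a difference of 3.37, Mad2l1, of the spindle checkpoint, 3.02, and Cdca8, of the passenger complex, 2.84. For each of these genes a large share of cycling cells was at or near 0, as in non-cycling cells, and the difference came from a part of the group.

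Chromosome condensation and cohesion genes had 10 of 19 higher by at least 2, 0 lower, and a median of 2.16. Top2a, the topoisomerase that untangles sister chromatids, had the largest difference of all genes compared. It ranged from 0 to 11.35 with a median of 5.66 in cycling cells, and from 0 to 10.29 with a median of 0.48 in non-cycling cells. Its mean was 5.24 ± 4.63 against 1.11 ± 2.16, a difference of 4.13 that stayed between 3.90 and 4.51 without any single cell, and it was expressed in 17 of 27 and 4 of 25 cells. Smc2, a core subunit of condensin, was expressed in 19 and 7 cells with a difference of 3.75. Mki67, the proliferation antigen Ki-67 that coats mitotic chromosomes, was expressed in 16 and 6 cells with a difference of 3.32, and its highest level in a non-cycling cell was 10.72. The condensin genes Ncapg2 and Ncapd2 had differences of 2.87 and 2.76.

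Of 30 compared kinetochore and spindle genes, 13 were higher by at least 2 and 0 lower, with a median of 1.72. Casc5, a kinetochore scaffold, had a difference of 3.25 and Cenpe, a kinetochore motor, 3.20, while Ndc80 and Spc25, of the complex that grips microtubules, had 2.49 and 2.53. Of 12 cytokinesis genes, 4 were higher by at least 2, with a median of 1.67. They were Kif23, a midzone motor (2.89), Kif20b (2.50), Ckap2l (2.12) and Ect2, which activates the contractile ring (2.11). Ect2 was expressed in 9 of 27 and 0 of 25 cells. The list of histone variants, HMG proteins and tubulins had 10 of 22 higher by at least 2 and a median of 1.91, with all 22 differences above 0. Hmgb3, a chromatin protein, had a mean of 6.16 ± 3.55 against 3.05 ± 3.40, and Ran, the GTPase of nuclear transport and spindle assembly, 8.96 ± 2.52 against 6.46 ± 3.15.

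**Figure D2:**
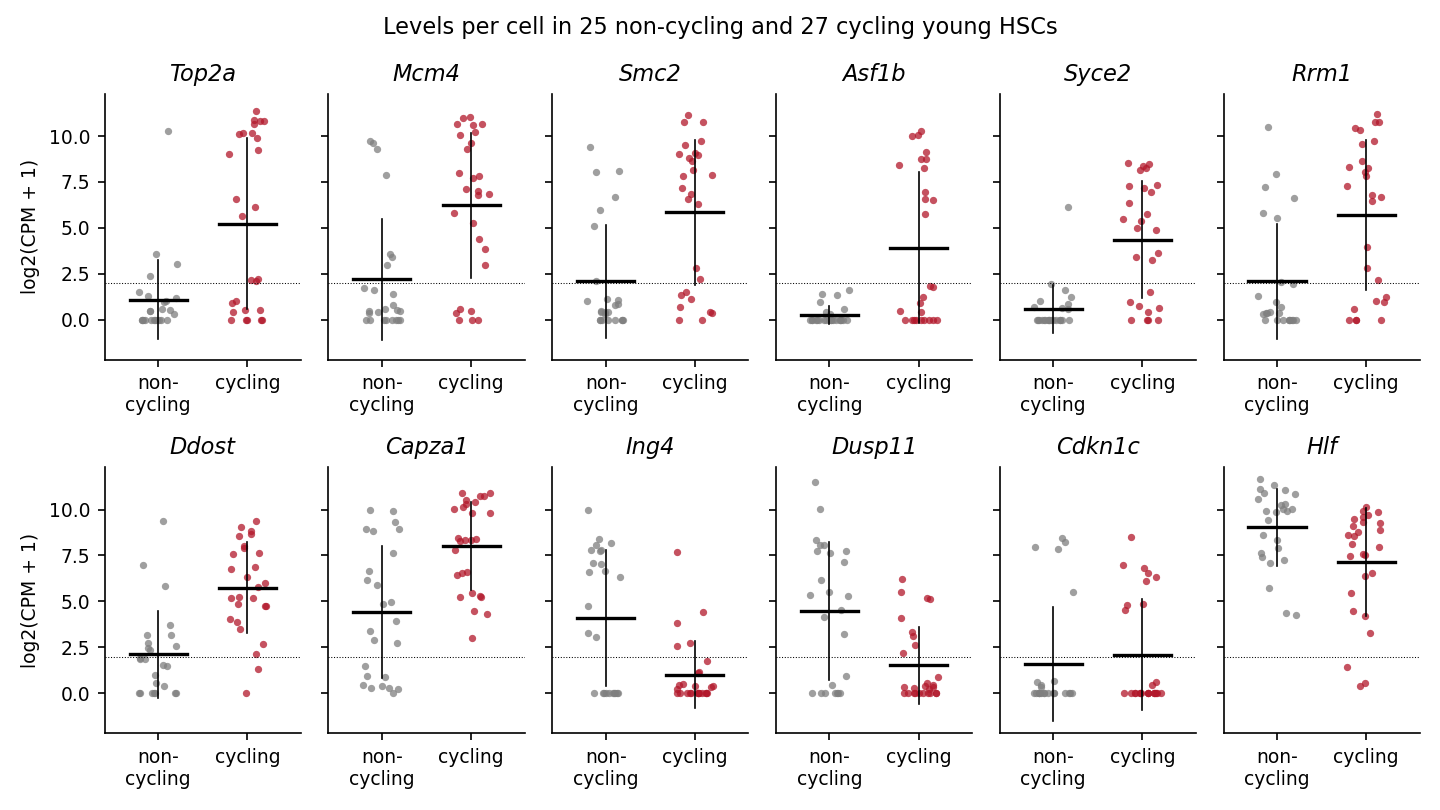
Level per cell, as log2(CPM + 1), of 12 genes in 25 non-cycling (grey) and 27 cycling (red) young HSCs, with the mean as a thick bar, the SD over cells as a thin line and the limit of 2 dotted. Top2a, Mcm4, Smc2, Asf1b, Syce2 and Rrm1 are near 0 in most non-cycling cells and spread from 0 to above 8 in cycling cells, while Capza1 is above 2 in all 27 cycling cells and Hlf in all 25 non-cycling cells.

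Regulators that act upstream in the cell cycle had smaller list medians than the replication fork and mitosis genes. Of 7 compared G1 cyclin and CDK genes 0 differed by 2, with a median of 0.86. Since 3.78% of all genes compared were higher and 0.271% lower by at least 2, this count was near the background. Ccnd2, the D-type cyclin, had a mean of 6.87 ± 3.67 in cycling and 7.62 ± 3.53 in non-cycling cells, and was expressed in 22 and 21 cells. Ccnd3 had a difference of 1.35 and Cdk4, the partner kinase of D cyclins, 1.37, while Cdk6 was expressed in 4 of 27 and 1 of 25 cells. Ccne2, cyclin E2, was expressed in 6 of 27 and 0 of 25 cells. The CDK inhibitors had a median of 0.49 over only 3 compared genes, with 2 above and 1 below 0. Cdkn2d had the highest difference, 1.67. Cdkn1b (p27) was expressed in 18 cycling and 22 non-cycling cells with a difference of -1.03. Cdkn1c (p57), known for holding HSCs at rest, was expressed in 9 and 5 cells with a difference of 0.49. Transcripts of Cdkn1c were therefore not confined to non-cycling cells, and its levels spanned 0 to 8.53 in cycling and 0 to 8.44 in non-cycling cells.

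In the list of E2F, pocket protein and MuvB complexes, 1 of 16 compared genes, Tfdp1, the DNA-binding partner of E2F proteins, was higher by at least 2. Its mean was 4.89 ± 3.90 against 1.93 ± 2.76, and it was expressed in 19 of 27 and 8 of 25 cells. E2f1 itself was expressed in 18 cells of each group, with a difference of -0.22. Foxm1, the activator of mitotic genes, was expressed in 7 of 27 and 0 of 25 cells with a difference of 1.88, and E2f8, a repressor of E2F targets, in 7 and 1 with 1.55. Mybl2 (B-Myb) had a difference of 1.37, Lin9, of MuvB, 1.72, and Rbbp4, which has other chromatin complexes as well, -0.53. Of 22 compared homologous recombination and replication stress genes, Brca2 (2.76) and Neil3 (2.05) were higher by at least 2, and the list had a median of 0.86.

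Cells were next described by the number of rule genes expressed. The rule genes act mainly in G2 and mitosis, so a higher count of mitosis genes in cells with more of them was built into this grouping, and the values are a description. Counting, in each cell, how many of the 57 genes of the 2 replication lists were expressed gave a median of 12 in non-cycling cells (7 to 38), 23 in cells with exactly 1 rule gene (8 to 43) and 25 in cells with 2 or more (10 to 46). For the 95 genes of the 4 mitosis lists, the medians were 21 (14 to 30), 27 (20 to 39) and 66 (17 to 85). By median, cells with exactly 1 rule gene were thus near cells with more in replication genes, and nearer to non-cycling cells in mitosis genes. The single cells were spread widely. More than 30 replication genes were expressed in 4 of the 12 cells, in 7 of the 15 with 2 or more and in 2 of 25 non-cycling cells. The 4 include the shallow cell H6, with 32 such genes from 273236 counted reads. The list medians were also taken against non-cycling cells. With exactly 1 rule gene, the median difference was 1.11 for licensing and 0.97 for fork genes, but 0.31 for mitotic kinases, 0.09 for kinetochore and 0.03 for cytokinesis genes. Over all genes compared it was 0.20 in these cells. With 2 or more, the list medians were 1.35 and 2.34, against 3.24, 2.98 and 3.02 in the same order, and 0.25 over all genes compared. The licensing median was thus similar in both sets of cells, while the fork median was larger in cells with 2 or more, as were the 3 mitosis medians. Genes were filtered again for each set, with 9268 compared for exactly 1 rule gene and 9621 for 2 or more. The 2 medians of a list are thus not always over the same genes.

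**Figure D3:**
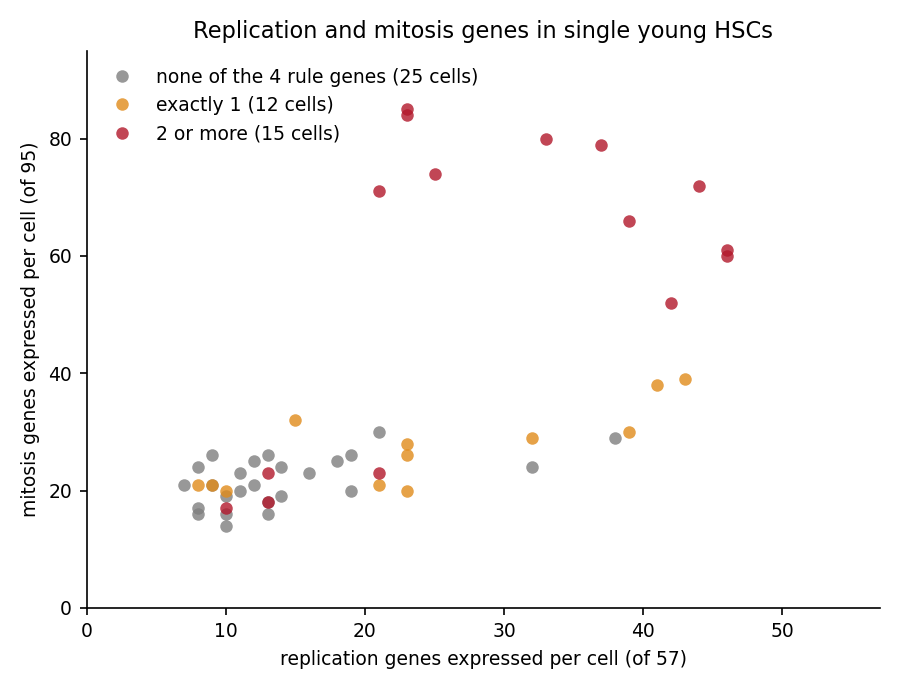
Number of replication genes (horizontal axis, of 57) and mitosis genes (vertical axis, of 95) with a level above 2 in each of 52 young cells, coloured by the number of rule genes expressed. A set of 11 cells with 2 or more rule genes lies at 52 to 85 mitosis genes, above the highest non-cycling cell at 30, and the other 4 lie at 17 to 23.

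Single genes differed in this respect. Mki67 had a mean of 1.74 ± 2.93 in non-cycling cells, 1.73 ± 2.68 in cells with exactly 1 rule gene and 7.72 ± 4.12 in cells with 2 or more. Aurkb had 0.07 ± 0.19, 0.38 ± 0.65 and 5.23 ± 3.48. In contrast, Lig1 had 1.48 ± 2.65, 5.02 ± 3.64 and 5.12 ± 3.70, and Slbp had 1.21 ± 2.20, 4.72 ± 3.96 and 3.94 ± 3.67. Mcm4 had 2.20 ± 3.28, 5.68 ± 4.15 and 6.67 ± 3.84. Other replication genes had their highest means in cells with 2 or more, as Asf1b (0.26, 2.13 and 5.36), Fen1 (0.71, 1.92 and 4.74) and Rrm2 (0.13, 1.31 and 5.01). Replication genes therefore did not share a single pattern.

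Cells within a group were far from alike. Of the 15 cells with 2 or more rule genes, 11 had more mitosis genes than any non-cycling cell, with 52 to 85 mitosis and 21 to 46 replication genes. The other 4 (C5, G6, G7 and G8) had 17 to 23 mitosis and 10 to 21 replication genes, within the range of non-cycling cells, although G8 had Cdk1 at 9.24 and G6 had Ccnb1 at 10.40. Cell G8 also had Mcm4 at 11.01 but 0 reads of Top2a, Mki67, Bub1b and Aurkb. Cells B8 and G11 had the most mitosis genes (85 and 84), with Top2a at 10.85 and 10.66 and Mki67 at 10.77 and 9.95. Of the non-cycling cells, 23 of 25 expressed 21 or fewer replication genes. The other 2 were F1, with 38 replication and 29 mitosis genes, and H12, with 32 and 24. F1 had no read of any rule gene, yet had Lig1 at 7.51, Mki67 at 6.70 and Rrm1 at 5.52. H12 had Mcm4 at 9.31, Lig1 at 5.84 and Rrm1 at 5.81, and 0 reads of Top2a and Mki67. The label non-cycling therefore states that the 4 rule transcripts were below the limit, not that replication transcripts were.

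The higher genes outside the cell cycle lists included chromatin, secretory and metabolic genes. Syce2, known from the synaptonemal complex of meiosis, had a difference of 3.78 and was expressed in 18 of 27 and 1 of 25 cells. Cbx5, heterochromatin protein 1 alpha, ranged from 0.54 to 12.04 with a median of 10.07 in cycling cells and from 0.46 to 12.50 with a median of 3.996 in non-cycling cells. Capza1, an actin capping subunit, was expressed in all 27 cycling cells and in 16 of 25 non-cycling cells, with means of 8.02 ± 2.41 and 4.41 ± 3.58. Cpne3 had a difference of 3.56, Gbp7, a guanylate-binding protein, 3.52, and Dnajb1, a heat shock co-chaperone, 3.39.

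Ddost, a subunit of the oligosaccharyltransferase of the endoplasmic reticulum, ranged from 0 to 9.35 in cycling and from 0 to 9.37 in non-cycling cells, with medians of 5.81 and 1.85. It was expressed in 25 of 27 cells (92.6%, 75.7 to 99.1%) against 10 of 25 (40%, 21.1 to 61.3%), with a difference of 3.62. Copg1, of the COPI coat, had a difference of 3.54. A list of endoplasmic reticulum entry, folding and coat proteins was then made after these genes were seen, so it cannot serve as evidence. It had 11 of 57 compared genes higher by at least 2, 0 lower, and a median of 0.92, with Golt1b at 3.38, Ssr3 at 3.29 and Ppib at 3.12. The median was 0.34 with TMMwsp factors and 0.15 from ratios of summed counts, and the number of these genes expressed per cell had medians of 40 against 28. Ppib, a folding enzyme, had a mean of 6.64 ± 2.21 in cells with exactly 1 rule gene, 6.49 ± 1.55 in cells with more and 3.44 ± 3.26 in non-cycling cells, so its level did not follow the mitosis genes.

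Oxidative phosphorylation genes, which make up the respiratory chain and ATP synthase, had 6 of 73 higher by at least 2, 0 lower, and a median of 1.03, with 68 of 73 above 0. Atp5g3, a subunit of ATP synthase, had a mean of 6.80 ± 2.40 against 4.10 ± 3.12. Proteasome genes had 6 of 38 higher by at least 2, 0 lower, and a median of 1.01, with Psmc6 at 2.62 and Psmb6 at 2.46. For these lists the size depends on how cells are scaled, since TMMwsp factors gave 0.47 and 0.42 and ratios of summed counts 0.23 and 0.39. The number of their genes expressed per cell had medians of 61 against 46 of 75 for oxidative phosphorylation and 28 against 21 of 39 for the proteasome. For all genes these medians were 4614 against 3862. Among cells with 3500 to 5000 genes expressed, the list medians were 1.04 and 0.82. The part of the number of all genes expressed in the list medians was not tested.

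Ribosome biogenesis and Myc genes were mixed. Of 32 compared, 6 were higher by at least 2 and 1 lower, with a median of 0.38 that became -0.24 with TMMwsp factors. Rrn3, which brings RNA polymerase I to ribosomal DNA, had a difference of 3.03, and Nop58 and Nop56, of the snoRNP core, 2.68 and 2.63. The lower gene, named after its values were seen, was Mycn, a Myc family factor, with means of 2.64 and 4.71. Cytosolic ribosomal protein genes had 0 of 75 past 2 in either direction, 56 of 75 below 0 and a median of -0.15. Of all genes compared, 3.78% were higher and 0.271% lower by at least 2. Rpl10a had a mean of 9.37 ± 0.68 against 9.86 ± 0.71. Glycolysis genes had a median of 0.47, with Pgk1 (2.04) past 2, and cholesterol synthesis genes a median of -0.03, with Idi1 (2.31) past 2.

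Of 31 compared HSC regulators, which maintain the stem cell state, 1 was higher by at least 2 and 0 were lower, beside 3.78% and 0.271% of all genes compared, so this count was near the background. They had a median of 0.06 and 16 above against 15 below 0, and the median was -0.16 with poscounts and -0.47 with TMMwsp factors. The number of them expressed per cell had a median of 17 in both groups. Hlf, a transcription factor typical of HSCs, was expressed in all 25 non-cycling cells, at 4.26 to 11.65 with a median of 9.91, and in 24 of 27 cycling cells, at 0.39 to 10.15 with a median of 8.12. Its difference was -1.90, and over the alternatives it ran from -2.66, in cells with 3500 to 5000 genes expressed, to -0.56, under the rule without Cdk1. It was -1.31 with at least 2 rule genes and -2.63 with exactly 1. Gfi1b, a transcriptional repressor that acts in HSCs and in erythroid and megakaryocyte cells, was expressed in 12 of 27 and 2 of 25 cells. Its difference was 2.25. Tal1, a haematopoietic factor, was expressed in 24 and 12 cells with a difference of 1.505, but from ratios of summed counts the value was -0.06. The 29 compared quiescence genes had a median of 0.18 (-0.12 with TMMwsp factors), with 0 past 2 in either direction. This count was also near the background.

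**Figure D4:**
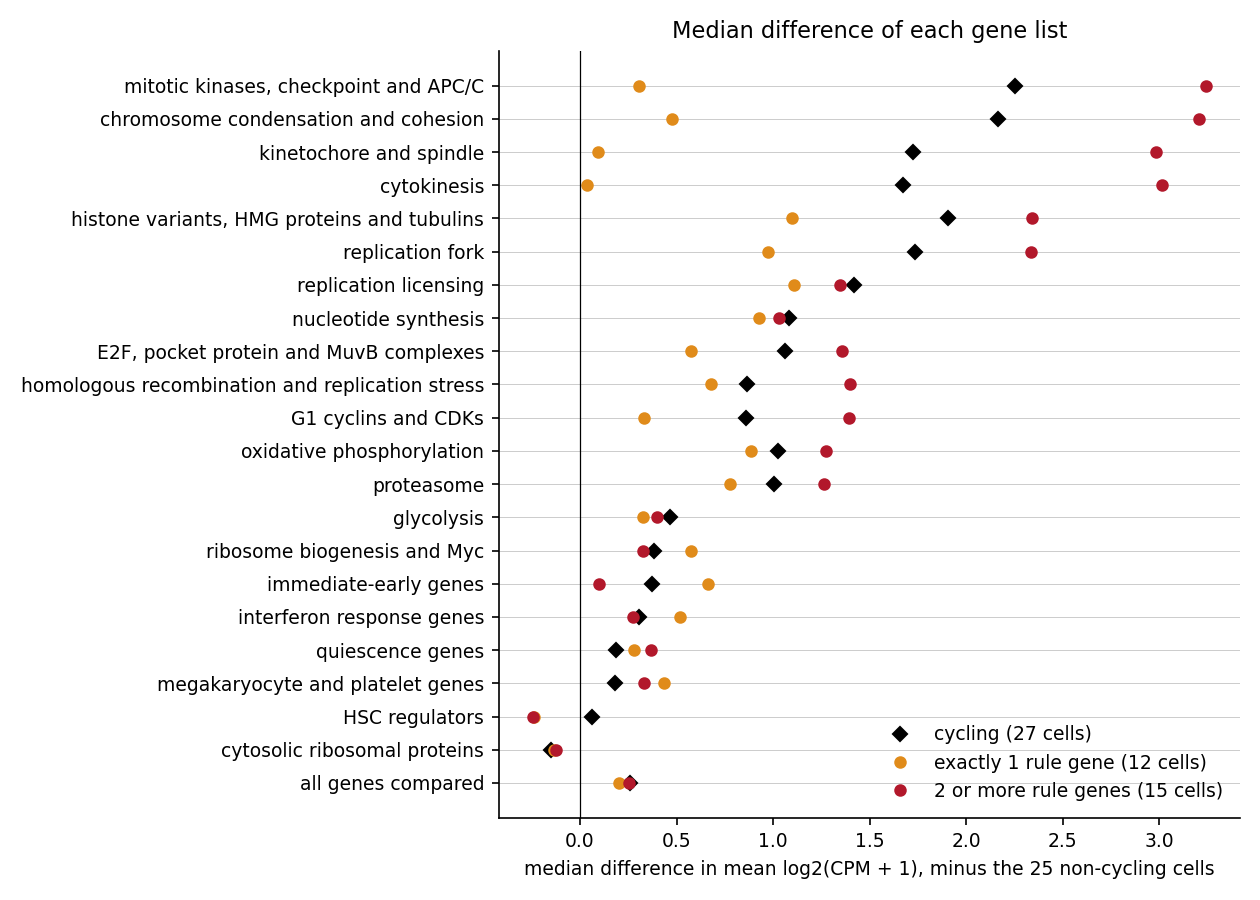
Median over the compared genes of each list of the difference in mean log2(CPM + 1) from the 25 non-cycling cells, for all 27 cycling cells (black diamonds), the 12 cells with exactly 1 rule gene (orange) and the 15 cells with 2 or more (red). The 4 mitosis lists lie between 0.03 and 0.48 for cells with exactly 1 rule gene and between 2.98 and 3.24 for cells with 2 or more, while HSC regulators and cytosolic ribosomal proteins lie near 0. Genes were filtered again for each set of cells, so the medians of a list are not always over the same genes.

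Lineage and signalling genes had no list with a gene past 2. Of all genes compared, 3.78% were higher and 0.271% lower by at least 2. With 6 to 26 compared genes in a list, a count of 0 was near that background. Megakaryocyte and platelet genes had a median of 0.18 over 17 compared genes (-0.07 with TMMwsp factors), granulocyte and macrophage genes 0.07 over 12 (-0.35), erythroid genes 0.09 over 6 (-0.25) and lymphoid genes -0.26 over 10. Vwf, the von Willebrand factor gene that marks platelet-biased HSCs and drives the reporter, was expressed in 16 of 27 and 14 of 25 cells, with means of 3.87 ± 3.59 and 3.69 ± 3.49. Among the platelet genes named in the study, Tgm2 was expressed in 13 and 5 cells (difference 1.52), Itgb3 in 7 and 4, Fhl1 in 6 and 4, Selp in 3 and 2, Sdpr in 3 and 5, and Clu in 0 and 2. Itga2b, the platelet integrin CD41, was expressed in 11 and 2 cells with a difference of 1.55. Of the 12 granulocyte and macrophage genes, 6 had a difference above 0 and 6 below. The lowest was Prtn3, a neutrophil granule protease, at -1.89, with means of 3.71 ± 3.15 and 5.61 ± 2.76. The highest was Lyz2, at 1.24. Immediate-early genes, the first answer to growth signals, had a median of 0.37 over 26 genes. Egr1 was expressed in 23 and 19 cells (difference 0.60), Junb in 14 and 14 (-0.25), Ier3 in 7 and 5 (0.31) and Egr3 in 1 and 1 (-0.10). Interferon response genes had a median of 0.31 over 23 genes (-0.11 with TMMwsp factors), and p53 target genes 0.04 over 7 (-0.28).

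Only 25 genes were lower in cycling cells by at least 2, which was 0.271% of the 9227 compared. Of them, 0 were among the 235 compared genes of the cell cycle lists, a count near that share. Ing4, a chromatin reader of the inhibitor of growth family, ranged from 0 to 9.95 with a median of 4.76 in non-cycling cells, and from 0 to 7.69 with a median of 0.23 in cycling cells. It was expressed in 15 of 25 (60%, 38.7 to 78.9%) against 5 of 27 cells (18.5%, 6.3 to 38.1%), with a difference of -3.08 that stayed between -3.34 and -2.84 without any single cell. Dusp11, an RNA phosphatase, had a difference of -2.96, Tceb3, elongin A, -2.73, Tmem223 -2.72, Fam63a -2.65 and Fmnl1, a formin, -2.60. Ppp1r9a had a difference of -2.50, Exoc3, of the exocyst, -2.39, Cul4b, a ubiquitin ligase scaffold, -2.32, and Sdc4, a syndecan, -2.18. Under the rule of at least 1 read, Fam160b1 and Cul4b changed sign. In every one of these genes the ranges of the groups overlapped.

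The sort markers and markers of other blood cells were checked in the same cells. Kit was expressed in 26 of 27 cycling and 23 of 25 non-cycling cells, Ly6a (Sca-1) in 16 and 12, Slamf1 (CD150) in 6 and 3, and Cd48 in 1 and 0. Slamf1 RNA was thus found in few cells although all were sorted as CD150+. Of the neutrophil, macrophage and dendritic cell, red cell, platelet, B cell and T and NK cell markers used here, no cell expressed more than 3 of any list. The median number expressed per cell was 0 in both groups for neutrophil (3 of 7 genes used), macrophage and dendritic (5 of 8), red cell (3 of 9) and platelet markers (4 of 6), 1 and 1 for B cell markers (2 of 7), and 0 and 1 for T and NK cell markers (5 of 7). Cd22, a B cell surface protein, was above the limit in 19 of 27 and 15 of 25 cells, at median levels of 2.29 and 2.09, Cd79b, of the B cell receptor, in 9 and 3, and Cd3d, of the T cell receptor complex, in 7 and 9. The summed level of the neutrophil markers reached 8.81 in cycling and 4.35 in non-cycling cells, and that of the red cell markers 6.48 and 9.63. Hba-a1 and Klrb1c had a level of 0 in all 52 cells. Their part in the differences above was not tested.

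In the old mouse the same rule marked 14 of 74 cells as cycling, and the values are set side by side without a test, since age and mouse cannot be told apart. No old cell was left out. Of 8969 genes compared there, 146 were higher in cycling cells by at least 2 (1.63%) and 33 were lower. The list medians were 0.93 for the replication fork, 0.38 for licensing, 1.36 for condensation and cohesion and -0.01 for mitotic kinases, against 1.73, 1.42, 2.16 and 2.25 in young cells. Genes were filtered again in the old cells, so these medians were over 24, 17, 12 and 10 genes, against 31, 22, 19 and 27. The medians of old and young cells are thus not over the same genes. Rrm1 was higher in old cycling cells by 2.81, Smc2 by 1.71 and Top2a by 1.47, whereas Mcm4 had -0.06 and Syce2 -0.37. Ddost had -0.61, Ppib 0.07 and Ing4 0.51. Hlf had 0.81 in old cells, opposite in sign to its value in young cells. Cdk1 was above the limit in 7 of the 14 old cycling cells and Ccna2 in 2. Of these 14 cells, C3, D4 and F8 expressed 2 rule genes and every other one exactly 1. In the young mouse 12 of 27 cycling cells expressed exactly 1. Among old non-cycling cells, B6 expressed 41 replication and 64 mitosis genes, and H8 expressed 44 and 36. The part of these features in the values above was not tested.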

How the data were processed

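RNA of single sorted bone marrow HSCs was captured on the C1 system (Fluidigm), amplified with SMARTer chemistry, made into Nextera XT libraries and sequenced as 51-base single reads. Cells were imaged on the chip by phase contrast, and no doublet caller was run. Per the study's methods and the submitters' processing notes, the authors aligned reads to mm10 with TopHat2 2.0.10, keeping 1 alignment per read, and deposited raw read counts per RefSeq gene, made with rpkmforgenes. There are no molecular identifiers, so intervals cover counting error only. Strand-specific counting is not stated, so overlapping and antisense genes are not separated, and 21 joint names hold genes that share reads. The table has 15181 names, 14287 of them RefSeq symbols of GRCm38.p6 and 817 synonyms, and 1182 had no read in the 52 cells.

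From these deposited counts, CPM and log2(CPM + 1) were computed per cell, with a pseudocount of 1 CPM. Genes with a level above 2 in at least 10% of the 52 cells were compared by the difference in mean level, and a difference of at least 2 was counted. Depth ran from 273236 to 5688706 counted reads per cell. The study's tests between cells were not used, because 1 mouse gives no replicates. Shares have exact binomial and read sums exact Poisson 95% intervals. The members and gene lists were chosen with earlier results of these data known, and the endoplasmic reticulum list after the largest differences were seen. Genes named are the 4 rule genes, the 15 largest differences each way, up to 5 members of each list with the largest absolute difference, all members of lists of up to 9 genes and of the E2F list, and the platelet and immediate-early genes of the study. Not every gene that this rule selects is reported here. Alternatives were other rules and limits, all 61 young cells, deeper cells, thinning to 250000 reads, TMMwsp factors (edgeR 4.0.16), poscounts size factors (DESeq2 1.42.0), a pseudocount of 0.1, summed counts and other filters. R 4.3.3, Python 3.11.15, pandas 2.3.3 and scipy 1.17.1 were used, and the comparison was tested on simulated counts with 200 changed genes.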

Additional observations from a re-analysis of the deposited data

Results flagged for a closer look

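The 9 young cells left out of the comparison were read by the same rule, and 5 of them met it (55.6%, 95% exact binomial interval 21.2 to 86.3%). This share was near that of the 52 cells in use, 51.9% (37.6 to 65.99%). The 5 cells were B11, B12, C1, C4 and G4. B11 met the rule on 3 reads each of Ccnb1 and Cdc25c and 5 of Cdk1. B12 had 6331 counted reads, with 2 reads of Ccna2 and 1 of Cdk1, so that single reads passed the limit. G4 had 165380 counted reads and 172 reads of Cdk1, a level of 10.02, with 39 of 95 mitosis genes expressed, above the highest non-cycling cell in use. C1 and C4 had Cdk1 at 2.65 and 4.31, with 18 and 21 mitosis genes. With all 61 young cells, 32 were cycling, 266 genes were higher and 14 lower by at least 2.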

How the results depend on the processing

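No paired analysis was possible because each group is a set of cells of 1 mouse and no cell has a partner. No alternative has a test, so the values below are sizes only, and the cause of each move was not tested. Cells of few counted reads limit the rule, since a single read then passes the level of 2. The licensing, fork, condensation, kinetochore, mitotic kinase and cytokinesis medians stayed above 0 under all alternatives run, and the choice of rule moved their size. Where an alternative changed the cells or the levels, genes were filtered again, so a list median can be over other genes. Staying above 0 is not staying above all genes. With exactly 1 rule gene the median over all genes compared was 0.20, above the kinetochore (0.092) and cytokinesis (0.034) medians. The 7 named genes past 2 in the same direction under every alternative were Cdk1, itself a rule gene, Copg1, Cpne3, Dck, Fam63a, Lig1 and Mcm4, of 90 past 2. The comparisons with exactly 1 rule gene, with at least 3, with 3500 to 5000 genes expressed and without the 2 cells under 500000 reads were added after seeing the data.

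With at least 1 read of a rule gene, 42 cells were cycling and 145 genes were lower, and medians were 0.69 for licensing, 0.97 for fork, 0.37 for nucleotide, 1.57 for condensation, 1.08 for kinetochore, 1.503 for mitotic kinase, 0.94 for histone, HMG and tubulin and -0.20 for ribosome biogenesis genes. Cul4b (0.11), Fam160b1 (0.034), Ran (-0.52) and the platelet marker median (-0.59) changed sign. With exactly 1 rule gene, 69 genes were lower, and medians were 0.97 for fork, 0.48 for condensation, 0.092 for kinetochore, 0.31 for mitotic kinase, 0.034 for cytokinesis and 1.10 for histone, HMG and tubulin genes. Casc5 (-0.22), Ckap2l (-0.17), Mad2l1 (-0.058), Mki67 (-0.0066), Ndc80 (-0.085) and Neil3 (-0.48) changed sign.

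With at least 2 rule genes, 15 cells were cycling, 659 genes were higher and 58 lower, and medians were 2.34 for fork, 3.20 for condensation, 2.98 for kinetochore, 3.24 for mitotic kinase, 3.02 for cytokinesis and 1.42 for CDK inhibitor genes. With at least 3, 1360 were higher and 80 lower, and medians were 2.32, 4.20, 4.96, 5.55, 5.11 and 1.75 in the same order, with 1.75 for E2F, 3.39 for histone, HMG and tubulin, 1.76 for oxidative phosphorylation, 1.85 for proteasome, 1.605 for endoplasmic reticulum and 1.09 for glycolysis genes. With a limit of 4, 632 genes were higher, and medians were 2.82 for condensation, 2.85 for kinetochore, 3.38 for mitotic kinase and 2.66 for cytokinesis genes. The rule without Cdk1 gave 19 cycling cells, 15 lower genes, and medians of 2.31 for kinetochore and 2.44 for cytokinesis genes.

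TMMwsp factors, with 25 cycling cells, gave 154 higher and 61 lower genes, and medians of 1.26 for histone, HMG and tubulin, 0.42 for proteasome and -0.24 for ribosome biogenesis genes, and poscounts gave 46 lower genes. A pseudocount of 0.1 gave 1118 higher and 95 lower genes, and medians of 2.26 for licensing, 2.67 for fork, 3.01 for condensation, 2.33 for kinetochore, 3.32 for mitotic kinase, 2.65 for cytokinesis and 1.77 for E2F genes. Ratios of summed counts gave 1140 higher and 891 lower genes, and medians of 3.72 for kinetochore, 4.13 for mitotic kinase, 4.70 for cytokinesis, 2.21 for E2F, 0.13 for G1 cyclin, -0.36 for CDK inhibitor, -0.33 for immediate-early, -0.63 for cholesterol, 0.15 for endoplasmic reticulum, 0.23 for oxidative phosphorylation and 0.39 for proteasome genes. The number of lower genes was 14 with all 61 young cells, 42 in cells with at least 1000000 reads, 96 in cells with 3500 to 5000 genes expressed and 38 after thinning with groups taken again. Without the 2 cells under 500000 reads the CDK inhibitor median was 1.11. Of the other values that answer a comparison, 489 moved by less than 1.5 times or less than the spread between cells. They include those of the rules without Ccna2 and without Cdc25c, which gave the same 27 cells and so could not move. Small medians that changed sign are also among them, as that of HSC regulators (0.06, and -0.47 with TMMwsp factors).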
